A study of Mus musculus with 6 samples.

Results

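The mRNAs of 10 genes that set cyclic AMP (cAMP) and its kinase in the mouse oocyte were examined: the receptors Gpr3 and Gpr12, the adenylyl cyclases Adcy3 and Adcy9, the phosphodiesterase Pde3a, the protein kinase A (PKA) subunits Prkar1a, Prkar2a, Prkaca and Prkacb, and the PKA anchor Akap1. They were chosen by gene symbol, and all 10 were present among the 24255 genes of the deposited expression table. RNA-Seq had been carried out on fully grown oocytes (FGOs) at the germinal vesicle (GV) stage from WT females and from Lsm14b-KO females, which were homozygous for the reporter-tagged insertion allele Lsm14b tm1a(KOMP)Mbp, both on the C57BL/6J background. Every female had received 5 IU of PMSG, a gonadotropin that drives follicle growth, 46 h before collection, and her age is not given in the sources used here. Each of the 6 libraries, 3 WT and 3 Lsm14b-KO, pooled 20 oocytes, and nothing states that the pools came from separate animals, so p-values measure the spread between these pools. The allele is carried by all cells of the animal, and the homozygotes came from a cross of homozygous males with heterozygous females, which gives no WT pups.

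Full-grown oocytes wait in meiotic prophase until the luteinizing hormone surge, and a high cAMP level inside the oocyte is known to keep them there. GPR3, and in some species GPR12, activates the stimulatory G protein without an added ligand, adenylyl cyclase then makes cAMP, and PDE3A breaks it down once the cyclic GMP that reaches the oocyte through gap junctions has fallen. cAMP binds the regulatory subunits of PKA and frees the catalytic subunits, which keep the kinase WEE2 active and the phosphatase CDC25B out of the nucleus, so that CDK1 stays off.

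The listed levels of this group were low in both genotypes, mostly below 1 FPKM in every library, as were those of 55.3% of all detected genes. The values are FPKM, fragments divided by transcript length and by the size of the library, a unit that allows levels of different genes to be compared. Prkar1a and Akap1 were the members that reached 1 FPKM in any library, 7 others stayed below 1 FPKM throughout, and Adcy3 was listed at 0 in all 6 libraries. In WT, Prkar1a stood above 68.6% of the 14325 genes with a value above 0 in at least 1 library, Akap1 above 61.8%, and the other detected members between 19.4% (Adcy9) and 46.2% (Prkar2a). The mean of all 9 detected members was higher in Lsm14b-KO than in WT FGOs, from 1.86-fold (Prkar2a) to 5.32-fold (Prkaca), but none passed the test across all genes.

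**Figure D1:**
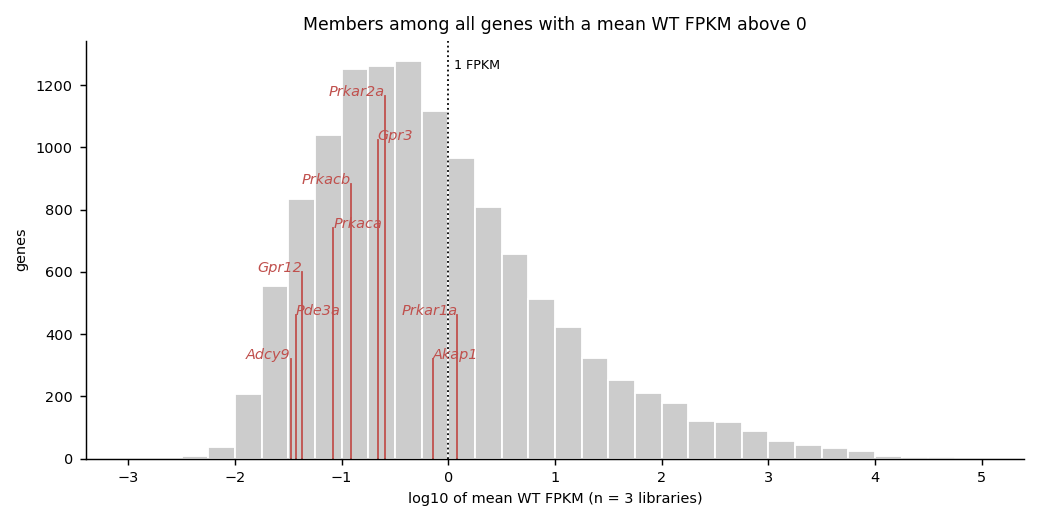
Distribution of genes by the log10 of their mean WT FPKM (bars, number of genes with a mean above 0), with the 9 detected members marked by red lines whose height has no meaning. Of the 9, Prkar1a is the one to the right of the dotted line at 1 FPKM, and Adcy9, Pde3a and Gpr12 lie nearest the low end.

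The genotype labels and the cell type were checked first. Lsm14b stood at 2.77, 3.98 and 1.72 FPKM in the WT libraries, was listed at 0 in the first pair of Lsm14b-KO libraries and had 0.102 FPKM in Lsm14b-KO replicate 3 (log2 fold change -1.85, SE 0.25, limma adjusted p = 0.00380). All 10 oocyte markers examined were present and none was called by the test, with Dppa3 at 19430 to 63630 FPKM. Their means in Lsm14b-KO were 0.928 (Dppa3) to 3.16 (Nlrp5) times those in WT, and their median log2 difference was 0.36. Of 12 cumulus and granulosa cell genes, Amh, Foxl2, Inhba, Lhcgr and Slc38a3 were at 0 in every library, and the summed level of the list was 9.73 to 13.5 FPKM in WT and 6.13 to 10.1 FPKM in Lsm14b-KO. Its most abundant gene, Cyp19a1, fell in Lsm14b-KO (log2 fold change -0.98, SE 0.28, limma adjusted p = 0.0426), a call lost in 9 of 16 alternatives, among them without each WT replicate and without Lsm14b-KO replicate 2 or 3 (adjusted p = 0.0844 to 0.151). Others of the list stood the other way without being called: all Lsm14b-KO values of Fshr (1.82 to 2.07 FPKM, against 0.349 to 1.68 FPKM in WT) and of Kitl (0.402 to 0.559 against 0.0970 to 0.383 FPKM) lay above the WT values, and the mean of Inha was 3.98 times as high. The median log2 difference of the 3 genes tested was 0.38, and the part of these genes in the member values was not tested. The 6 red blood cell genes were at 0 throughout.

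The FPKM that 1 fragment is worth differed between libraries. This step was smaller in the Lsm14b-KO libraries. Its size gave a relative depth, on the authors' scale, of 1 to 1.14 in WT. In Lsm14b-KO replicates 1, 2 and 3 the relative depth was 1.33, 1.94 and 2.18. It follows the authors' normalization as well as the reads. With the read totals unknown, it does not give how deeply each library was sequenced. The FPKM of all genes summed to 1141324 to 1244182 in WT and to 1029728, 564671 and 676656 in Lsm14b-KO replicates 1, 2 and 3. Lsm14b-KO replicates 2 and 3 had the highest relative depth and the smallest sums. In each of them 8 of the 10 members stood above every WT value, against 5 in Lsm14b-KO replicate 1. The share of all genes that did so in each library was not counted. The part of relative depth and of the FPKM sums in the member values was not tested.

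Both receptors gave only a few fragments. Gpr3 (chr4:133209340-133212536, GRCm38, minus strand), the receptor that keeps the cyclase on, had 0.404, 0.118 and 0.130 FPKM in WT and 0.202, 0.484 and 0.679 FPKM in Lsm14b-KO, in the order of replicates 1, 2 and 3 that is kept from here on. The groups overlapped, since WT replicate 1 was higher than Lsm14b-KO replicate 1. These values correspond to 3, 1 and 1 fragments in WT and to 2, 7 and 11 fragments in Lsm14b-KO. Corrected for relative depth on the authors' scale, the fragment rate of Gpr3 was 2.32 times as high in Lsm14b-KO, with a 95% interval of 0.846 to 7.92. The interval covers counting error only and includes no difference on this scale. Gpr3 overlaps Cd164l2 on the other strand, so reads of either gene could be assigned to the other.

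Gpr12 (chr5:146582398-146585239, minus strand), a receptor closely related to Gpr3, had 0.127, 0 and 0 FPKM in WT and 0.191, 0.0652 and 0.0583 FPKM in Lsm14b-KO. That is 1 fragment over the 3 WT libraries and 4 over the 3 Lsm14b-KO libraries, a rate ratio of 2.32 with a counting interval of 0.230 to 114.5. With so few fragments no difference of Gpr12 was detectable. In WT replicate 1, Gpr3 had 3.18 times the FPKM of Gpr12, and in Lsm14b-KO replicates 1, 2 and 3 it had 1.06, 7.42 and 11.6 times. The other 2 WT libraries hold no Gpr12 fragment and give no ratio, so this ratio was not tested.

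Of the cyclases, Adcy9 was detected at a very low level. Adcy9 (chr16:4287529-4420498, minus strand), a widely expressed cyclase, had 0.0342, 0 and 0.0665 FPKM in WT and 0.181, 0.221 and 0.126 FPKM in Lsm14b-KO. All 3 Lsm14b-KO values lay above all 3 WT values, as for 10.9% of the detected genes below 1 FPKM. The mean was 5.25 times as high in Lsm14b-KO. Levels corrected for relative depth were set against the lowest value above 0, that of WT replicate 1. They stood at 1, 0 and 2.01 in WT and at 7.05, 12.6 and 8.06 in Lsm14b-KO. The WT mean thus rests on a handful of fragments. A processed pseudogene model, Gm6142, lies inside the gene.

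Adcy3 (chr12:4133103-4213525, plus strand), the cyclase most often named for the mouse oocyte, was listed at 0 in every library. For a transcript of its annotated length, 4728 nt, 3 fragments would give 0.0793 to 0.173 FPKM depending on the library. In the deposited table Adcy3 shares 1 locus with Cenpo, which overlaps it on the other strand and had 2.09 to 6.86 FPKM, and with Ptrhd1, which had 5.30 to 18.4 FPKM. Whether fragments of Adcy3 were given to these neighbours, or its estimate failed, was not tested, and no fold is given.

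Pde3a (chr6:141249269-141507448, plus strand), the phosphodiesterase that lowers oocyte cAMP at meiotic resumption, had 0, 0.112 and 0 FPKM in WT and 0, 0.164 and 0.235 FPKM in Lsm14b-KO. It was at 0 in WT replicates 1 and 3 and also in Lsm14b-KO replicate 1, where 3 fragments would have given 0.191, 0.185 and 0.143 FPKM. The values correspond to 2 fragments in WT and 13 in Lsm14b-KO, a rate ratio of 3.78 with a counting interval of 0.855 to 34.5. The locus under which the table lists Pde3a ends 8097 nt before the 3′ end of the gene in GENCODE vM21, where the transcript has 12302 nt. The step behind these fragments implies a transcript of 4288 nt. It was accepted because that length is near the one left inside the locus, so it is no separate evidence for a shorter transcript. Whether these oocytes hold fragments in the stretch outside the locus was not tested, so the level given here is that of the shorter model.

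The regulatory subunits, which hold the kinase inactive until they bind cAMP, included the most abundant of the 10 members. Prkar2b, a regulatory subunit gene outside these 10, stood higher and is given below. Prkar1a (chr11:109649405-109669656, plus strand), the type I alpha subunit, had 0.905, 1.23 and 1.52 FPKM in WT and 1.49, 3.17 and 2.80 FPKM in Lsm14b-KO. Lsm14b-KO replicate 1 fell just under WT replicate 3, and the other 2 Lsm14b-KO libraries were above all WT libraries. The mean was 1.22 ± 0.306 FPKM in WT and 2.48 ± 0.884 FPKM in Lsm14b-KO (SD, n = 3 each). On the scale of log2(FPKM + 1) the difference was 0.63 (SE 0.25), with a limma p of 0.0365 and an adjusted p of 0.105 over all genes tested.

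Prkar2a (chr9:108689314-108750436, plus strand), the type II alpha subunit, had 0.266, 0.175 and 0.324 FPKM in WT and 0.0502, 0.821 and 0.553 FPKM in Lsm14b-KO. Lsm14b-KO replicate 1 was the lowest of the 6 libraries, at 1 fragment, while Lsm14b-KO replicates 2 and 3 were the highest, at 24 and 18 fragments against 3 to 5 in WT. The summed rate was 2.08 times as high in Lsm14b-KO (counting interval 1.08 to 4.34), but the 3 Lsm14b-KO libraries spread over both sides of the WT range, a spread the interval does not cover. Prkar1a exceeded Prkar2a 3.40, 6.99 and 4.69 times in WT and 29.6, 3.86 and 5.07 times in Lsm14b-KO. The log2 ratio differed by 0.79 between the groups (exact permutation test, two-sided p = 0.6, adjusted p = 1 over the 2 ratios with a test), and without Lsm14b-KO replicate 1 the difference was -0.12.

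**Figure D2:**
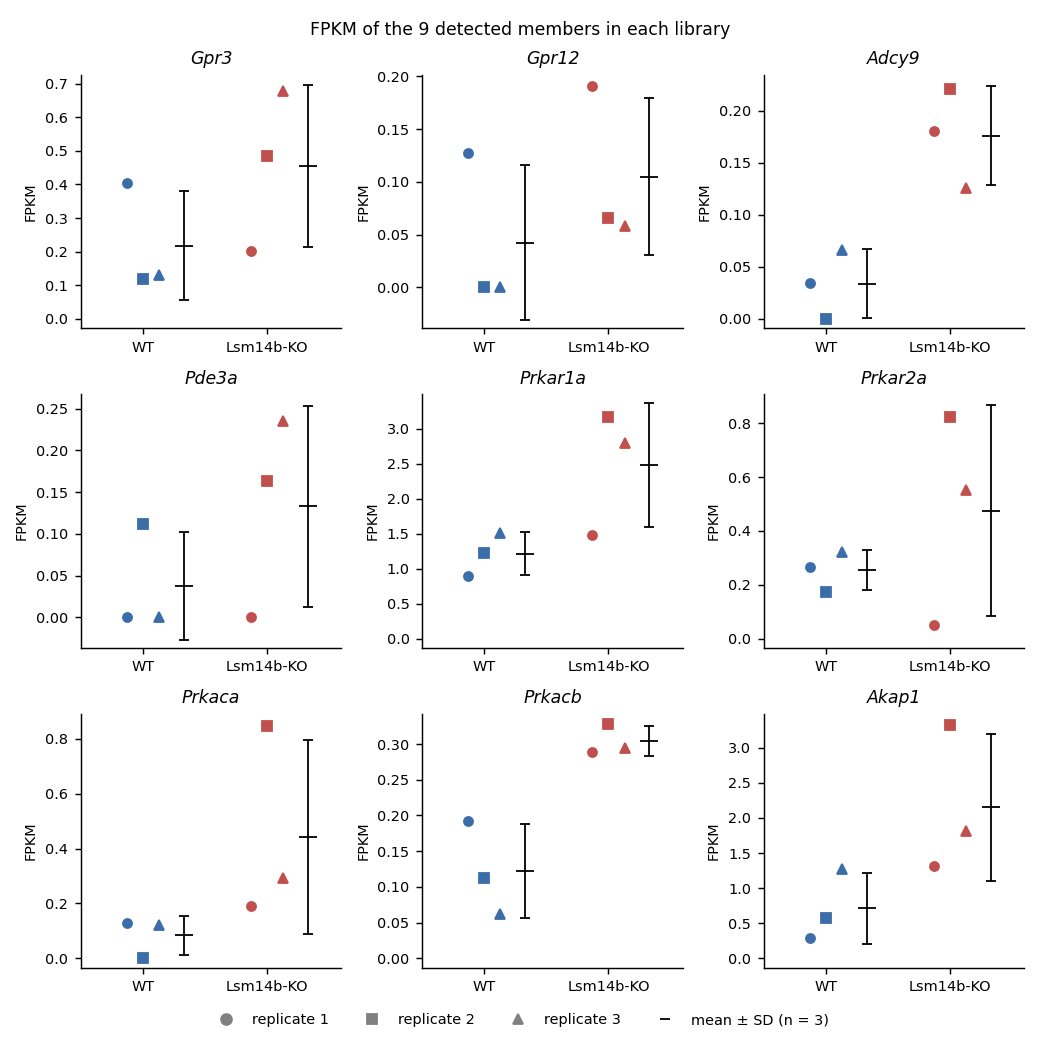
FPKM (y axis, a separate scale for each gene) of the 9 detected members in each WT (blue) and Lsm14b-KO (red) library, with symbols for the replicate and black bars for the mean ± SD (n = 3). All 3 red points lie above all 3 blue points for Adcy9, Prkaca, Prkacb and Akap1, and Lsm14b-KO replicate 1 (circle) lies within or below the WT range for Gpr3, Pde3a, Prkar1a and Prkar2a.

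Both catalytic subunits, the parts of PKA that phosphorylate its targets, were under 1 FPKM. For both, all Lsm14b-KO values lay above all WT values, as for 10.9% of the detected genes below 1 FPKM. Prkaca (chr8:83972993-83996443, plus strand) had 0.127, 0 and 0.123 FPKM in WT and 0.191, 0.847 and 0.291 FPKM in Lsm14b-KO. These are 1, 0 and 1 fragments against 2, 13 and 5, and the rate ratio of 5.81 has a counting interval of 1.41 to 51.3. Of the 20 Lsm14b-KO fragments 13 came from Lsm14b-KO replicate 2. The interval does not cover such a spread between libraries. With no minimum level the log2 difference of Prkaca was 0.39 (SE 0.17, limma adjusted p = 0.234).

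Prkacb (chr3:146729574-146812990, minus strand) had 0.192, 0.112 and 0.0621 FPKM in WT and 0.289, 0.328 and 0.295 FPKM in Lsm14b-KO. It was the member with the closest Lsm14b-KO values, at 6, 10 and 10 fragments against 3, 2 and 1 in WT. Its rate ratio was 2.52 (counting interval 1.01 to 7.48). With no minimum level its log2 difference was 0.22 (SE 0.08, limma adjusted p = 0.167). A pseudogene model, Gm19104, lies inside the gene. Prkaca stood at 0.662 and 1.98 times Prkacb in WT replicates 1 and 3 and at 0.659, 2.58 and 0.989 times in Lsm14b-KO, so that neither catalytic subunit led in all libraries. WT replicate 2 has no Prkaca fragment and gives no ratio. The group means of the log2 ratio were 0.06 apart (exact permutation test, two-sided p = 1.0, where 2 libraries against 3 cannot go below 0.2), and without WT replicate 1 or without Lsm14b-KO replicate 2 the difference was -0.73 or -0.50.

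**Figure D3:**
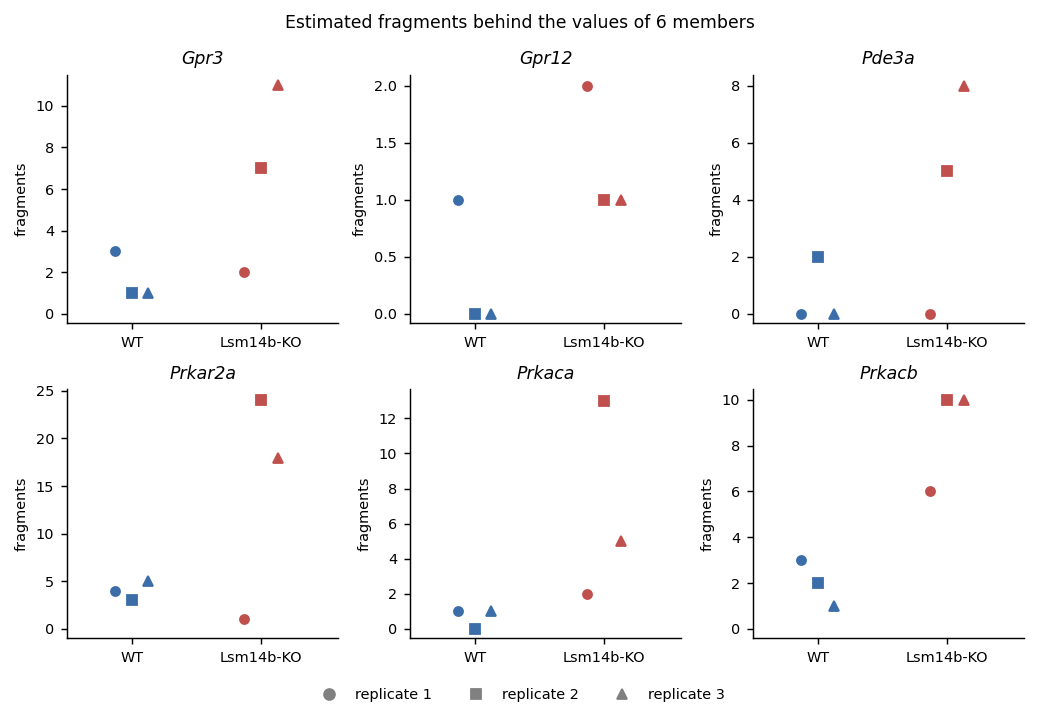
Estimated fragments (y axis, not corrected for relative depth) in each library for the 6 members whose FPKM are whole multiples of 1 step. The WT libraries (blue) hold 0 to 5 fragments per gene, and the highest value is 24, for Prkar2a in Lsm14b-KO replicate 2 (red).

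Akap1 (chr11:88830792-88864586, minus strand), the anchor that places PKA on the outer surface of mitochondria, had 0.291, 0.574 and 1.27 FPKM in WT and 1.31, 3.32 and 1.81 FPKM in Lsm14b-KO. All Lsm14b-KO values lay above all WT values, as for 14.5% of all detected genes, although the lowest Lsm14b-KO and the highest WT value were close. The mean was 0.712 ± 0.505 FPKM in WT and 2.15 ± 1.05 FPKM in Lsm14b-KO (SD, n = 3 each). The log2 difference was 0.87 (SE 0.31), with a limma p of 0.0219 and an adjusted p of 0.0762. An antisense gene, 4930556N13Rik, overlaps Akap1 and was listed at 0 in the same locus.

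Across the group, limma called 0 of the 2 tested members, and both had an unadjusted p under 0.05. Over all 6398 genes tested, 21.6% were called and 39.4% had an unadjusted p under 0.05, so that 2 members with such p-values are not unusual in this comparison. With no minimum level, 0 of the 9 detected members were called, with adjusted p from 0.104 (Adcy9) to 0.580 (Prkar2a), and 4 had an unadjusted p under 0.05 (Adcy9, Akap1, Prkacb and Prkar1a), where 5.03% of 14325 genes were called and 23.4% had such a p. In Lsm14b-KO replicate 1, 7 of the 9 detected members were lowest among the 3 Lsm14b-KO libraries, and the share over all genes was not counted. With that library left out, limma called both tested members, Akap1 at 1.07 (adjusted p = 0.0310) and Prkar1a at 0.85 (adjusted p = 0.0154). In that setting 45.3% of all tested genes were called. Prkar1a was then called with no minimum level as well (adjusted p = 0.0416), as were 16.8% of all genes. In the 16 alternatives run for each, the adjusted p of Akap1 ranged from 0.0310 to 0.228 and that of Prkar1a from 0.0154 to 0.272.

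The direction was shared, though many low genes shared it too. All 9 detected members had a higher mean in Lsm14b-KO, against 54.7% of all detected genes and 60.6% of the 7927 genes that stayed below 1 FPKM. There were 4 members with all 3 Lsm14b-KO values above all 3 WT values (Adcy9, Prkaca, Prkacb and Akap1) and none with the reverse, against 14.5% of all detected genes and 10.9% of those below 1 FPKM. The median log2 difference of the 9 members was 0.22 with no minimum level, beside 0.02 over all genes. Transcript length also moved with the differences: the median over tested genes with transcripts of 3 to 5 kb was 0.23, and under 1 kb it was -0.62. With length and GC content corrected, the differences of Akap1 and Prkar1a above the median of tested genes were 0.61 and 0.43, in place of 0.94 and 0.70.

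The order of levels was led by the same 4 genes in both groups. In WT the means ran from Prkar1a over Akap1, Prkar2a, Gpr3, Prkacb, Prkaca, Gpr12 and Pde3a to Adcy9, and every pair of neighbours in this order had overlapping ranges. In Lsm14b-KO the order was Prkar1a, Akap1, Prkar2a, Gpr3, Prkaca, Prkacb, Adcy9, Pde3a and Gpr12, with ranges apart between Akap1 and Prkar2a and between Prkacb and Adcy9. Prkar1a was above Akap1 in 5 of the 6 libraries, the exception being Lsm14b-KO replicate 2. Together these 2 genes made up 51.0% to 79.8% of the summed FPKM of the members in WT and 67.3% to 71.7% in Lsm14b-KO. That sum was 2.35, 2.32 and 3.49 FPKM in WT and 3.90, 9.42 and 6.85 FPKM in Lsm14b-KO.

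The rest of the pathway was read from a list of 86 further genes for G proteins, cyclases, phosphodiesterases, PKA subunits and inhibitors, anchoring proteins, PKA substrates, other cAMP effectors and the cyclic GMP supply. Of these 85 were in the table, 17 were at 0 in every library and 28 were tested. In Lsm14b-KO 1 rose and 4 fell, or 17.9% of those tested, near the 21.6% over all genes, and their median log2 difference was 0.00 beside -0.08 over all tested genes. Other scalings gave another balance, with 6 called higher and 2 lower under TPM scaling and 3 higher and 4 lower under quantile normalization.

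Among 18 listed receptor and G protein genes, 10 were tested, 1 rose and 1 fell. Gnas (chr2:174284320-174346744), which encodes the stimulatory alpha subunit that GPR3 acts through, had 5.09, 6.46 and 7.35 FPKM in WT and 12.97, 16.62 and 19.04 FPKM in Lsm14b-KO. The groups were well apart and Gnas rose by 1.23 on the log2 scale (SE 0.25, limma adjusted p = 0.0155). The call was lost without WT replicate 1, 2 or 3 or without Lsm14b-KO replicate 3, at adjusted p of 0.0530 to 0.0860. Several transcripts start at different promoters of this imprinted locus and the antisense gene Nespas overlaps it, and the values do not separate them. Gnb5 (chr9:75306288-75345876), a G protein beta subunit, fell from 3.98, 3.26 and 2.49 FPKM to 1.54, 0.922 and 0.884 FPKM (-1.0, SE 0.22, limma adjusted p = 0.0206). Its call was lost without WT replicate 1 or 2 or Lsm14b-KO replicate 2 or 3, with no minimum level (adjusted p = 0.0548) and with TPM scaling (-0.58, adjusted p = 0.107).

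Rgs2, which encodes a regulator that speeds the shut-off of G protein signals, was by far the most abundant gene of the list. It had 3461, 3124 and 2906 FPKM in WT and 2249, 751 and 1263 FPKM in Lsm14b-KO, with no overlap between the groups. The difference of -1.29 (SE 0.41) missed the threshold in limma (adjusted p = 0.0567), and it was called with length and GC correction (adjusted p = 0.0404) and without Lsm14b-KO replicate 1 (-1.69, adjusted p = 0.00280). With quantile normalization the difference was -0.39 (adjusted p = 0.194). The gamma subunit genes Gng5, at 91.3 to 107 FPKM in WT and 104 to 151 FPKM in Lsm14b-KO, and Gng12, at 175 to 212 and 167 to 369 FPKM, overlapped between the groups and were not called (log2 difference 0.41 and 0.19). Gng5 was called as higher with TPM scaling (1.10), quantile normalization (1.04) and length and GC correction (1.19), and Gng12 with TPM scaling (0.88) and quantile normalization (0.87), while Gng12 was at -0.17 without Lsm14b-KO replicate 1. Gng5 has 4 near-identical copies elsewhere in the annotation, which can share its reads.

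None of the 8 other adenylyl cyclases reached 1 FPKM, and their summed level was 0.0506 to 0.178 FPKM in WT and 0.156 to 0.262 FPKM in Lsm14b-KO. Among 17 other phosphodiesterases 2 were tested, and Pde3b fell. Pde3b (chr7:114415281-114539251), the second gene of the PDE3 family that cyclic GMP inhibits, had 2.05, 2.55 and 2.04 FPKM in WT and 1.17, 0.591 and 1.09 FPKM in Lsm14b-KO (-0.73, SE 0.21, limma adjusted p = 0.0407). In every WT library Pde3b was thus above Pde3a as listed. The call of Pde3b was near the threshold and was lost in 10 of the 16 alternatives run, among them without each WT replicate (adjusted p = 0.0961 to 0.135) and without Lsm14b-KO replicate 2 (0.0996) or 3 (0.112).

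**Figure D4:**
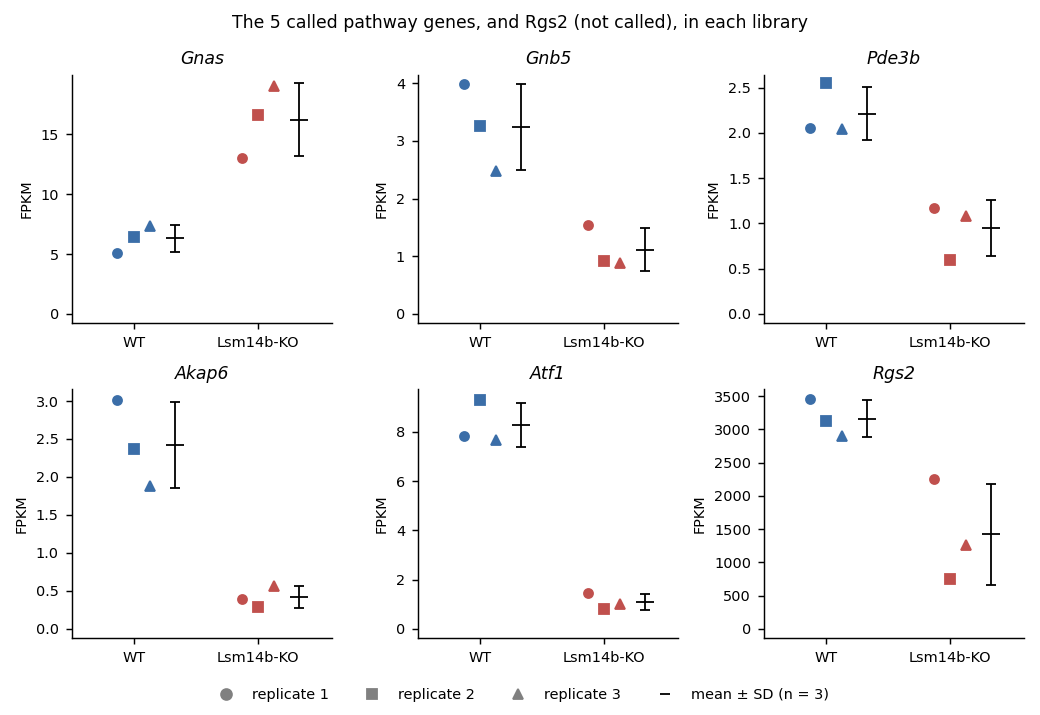
FPKM (y axis, a separate scale for each gene) of the 5 pathway genes with an adjusted p under 0.05, and of Rgs2, in each WT (blue) and Lsm14b-KO (red) library, with the mean ± SD (n = 3). The groups do not overlap in any of the 6 panels, with Gnas higher and the others lower in Lsm14b-KO.

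None of the 3 tested genes for other PKA subunits and inhibitors was called. Prkar2b, the type II beta regulatory subunit, stood above Prkar1a in every library. It had 2.195, 1.781 and 2.762 FPKM in WT and 3.365, 3.548 and 4.492 FPKM in Lsm14b-KO. Its log2 difference was 0.57 (SE 0.21, limma adjusted p = 0.0870), and it was called with TPM scaling (1.11, adjusted p = 0.042). Pkig, a PKA inhibitor gene with 1 near-identical copy in the annotation, had 12.2 to 15.1 FPKM in WT and 11.3 to 25.5 FPKM in Lsm14b-KO. Of 16 other anchoring protein genes 7 were tested and Akap6 fell. Akap6 (chr12:52699383-53155599), whose protein anchors PKA at the nuclear envelope, had 3.02, 2.36 and 1.88 FPKM in WT and 0.398, 0.284 and 0.569 FPKM in Lsm14b-KO (-1.26, SE 0.21, limma adjusted p = 0.00684). It was called in all 16 alternatives. Akap2, which shares its deposited locus with Pakap and Palm2, had 20.8 to 24.3 FPKM in WT and 7.20 to 20.8 FPKM in Lsm14b-KO (adjusted p = 0.234 in limma), and Akap7 had 15.6 to 20.4 and 10.9 to 20.5 FPKM.

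Of 8 genes for PKA substrates and CREB partners 4 were tested and Atf1 fell. Atf1 (chr15:100227819-100261244), a transcription factor of the CREB family that PKA phosphorylates, had 7.82, 9.29 and 7.69 FPKM in WT and 1.47, 0.815 and 1.01 FPKM in Lsm14b-KO. The change of -2.15 (SE 0.21, limma adjusted p = 0.00121) had the smallest adjusted p of the list and was called in all 16 alternatives. A near-identical copy, Atf1-ps, is annotated, so its reads may be shared. Wee2, the oocyte kinase that PKA activates, had 18.4, 20.8 and 20.7 FPKM in WT and 17.6, 53.7 and 35.3 FPKM in Lsm14b-KO, and it was not called (0.67, SE 0.40, limma adjusted p = 0.239). It was called without Lsm14b-KO replicate 1 (1.09, adjusted p = 0.00977), and its difference was 0.31 without Lsm14b-KO replicate 2, 1.34 with TPM scaling and 1.14 with quantile normalization. The paper, with another test of the RNA-Seq data and with qRT-PCR, reports higher Wee2 mRNA in Lsm14b-KO oocytes. Of 4 genes for other cAMP effectors and exporters 1 was tested, and it was not called in the fit reported. It was called as higher with TPM scaling (1.37, limma adjusted p = 0.0194) and without Lsm14b-KO replicate 2 (1.11, limma adjusted p = 0.0359).

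In the cyclic GMP supply list, 5 of 10 genes were at 0 in every library, Npr2 and Nppc of the follicle cells among them. Gja4, the connexin of the gap junctions between oocyte and cumulus cells, was the one gene tested, at 22.5, 24.0 and 29.4 FPKM in WT and 11.2, 33.03 and 19.0 FPKM in Lsm14b-KO. Its groups overlapped (-0.37, SE 0.39, limma adjusted p = 0.489), and the difference was 0.30 with TPM scaling.

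**Figure D5:**
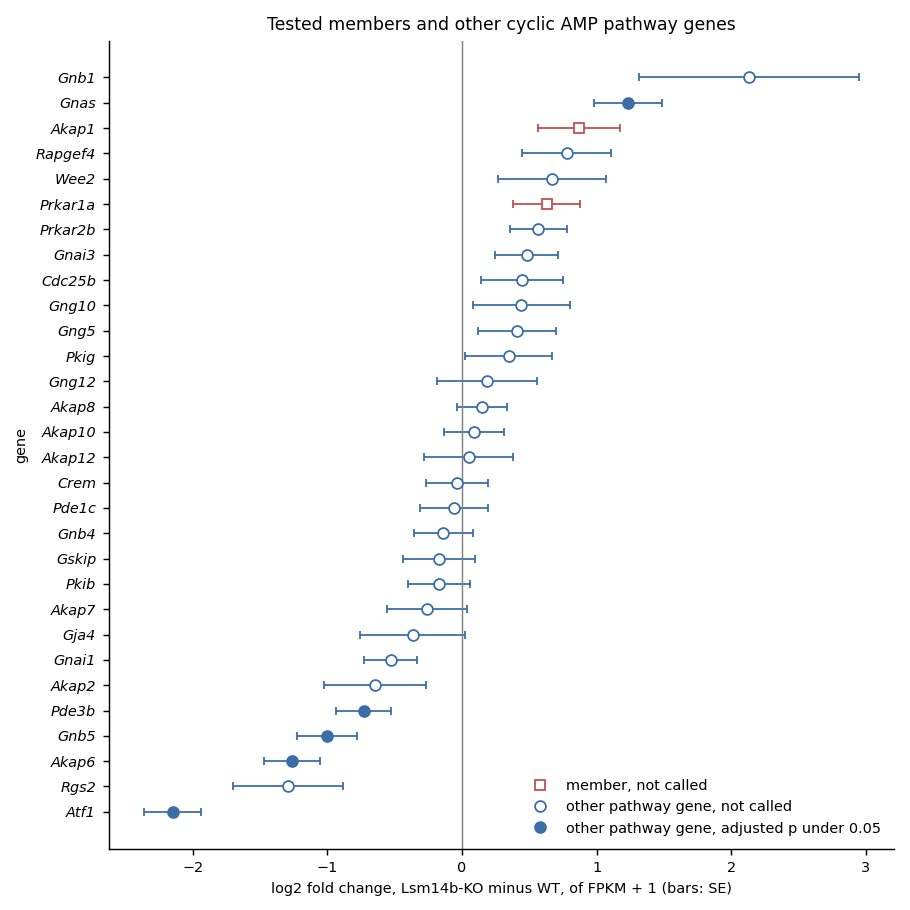
Log2 fold change of FPKM + 1, Lsm14b-KO minus WT, with its SE (x axis), for the 2 tested members (red squares) and the 28 other tested pathway genes (blue circles). Filled symbols mark an adjusted p under 0.05: Gnas on the right, and Pde3b, Gnb5, Akap6 and Atf1 on the left, while both members are open and lie to the right of 0.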

How the data were processed

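The deposited table holds FPKM values per gene for 6 libraries of 20 FGOs each. Per the labels, the authors amplified RNA by Smart-seq2, aligned reads to mm10 with TopHat2 2.0.13 and computed and normalized FPKM with Cufflinks 2.2.1 and Cuffnorm; the gene annotation is not given in the sources used here. Smart-seq2 primes on poly(A) tails, so a level is that of polyadenylated RNA. Because each library pools 20 oocytes, less RNA per oocyte and fewer oocytes with it cannot be told apart. FPKM is relative to a library's total, so it does not give the absolute amount of an RNA. The table's columns of the authors' own comparison (fold change, p and q values) were not used, and 0 columns lacked a sample.

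Genes with at least 1 FPKM in 1 library were tested on log2(FPKM + 1) with limma 3.58.1 (R 4.3.3, eBayes with trend, Benjamini-Hochberg adjustment, threshold 0.05), and the same fit with no minimum served for the members below it. Such a fold change understates the change of low genes. The fit was tested on simulated data. Low FPKM values are whole multiples of what 1 fragment is worth: the commonest ratio of values under 0.2 FPKM gave relative depth, and a gene's values were read as fragments where they were whole within 0.1 of a fragment or 1.5%, which held for 54.2% of 6434 low genes. For Pde3a the step was taken as its lowest value divided by 2. Such a step was kept only where the length it implies was near that of the listed model. Counting intervals (95%, exact binomial) and the limit of 3 fragments for a 0 cover counting error only, and the read totals are unknown. The intervals rest on the relative depth of the authors' scale, and no other scaling was run for them. Positions are from GENCODE vM21 (GRCm38, the same build as mm10), and near-identical copies are matches of at least 95% identity over 200 nt found with blastn 2.17.0. Ratios of 2 members were tested by exact permutation with scipy 1.17.1.

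The members and gene lists were chosen with earlier results of these data known. All members are named. Of the other pathway lists, up to 3 called genes per direction are named, and genes with a mean of at least 10 FPKM may be. Prkar2b was named outside this rule, because it stood above Prkar1a. Alternatives were pseudocounts of 0.1 and 0.01, no minimum, a mean of at least 1 FPKM, TPM scaling, quantile normalization, correction for length and GC content, a replicate block, eBayes without trend, robust eBayes and leaving out each library. Members under 1 FPKM were fitted with no minimum together with each of these, a combination chosen after seeing the data.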

Additional observations from a re-analysis of the deposited data

How the results depend on the processing

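The number of genes called was 1383 in the fit reported, 720 with no minimum level, and 315 to 2898 when 1 library was left out. The share of calls that were higher in Lsm14b-KO was 29.5% (408 higher, 975 lower), and 63.2% with TPM scaling (833 higher, 486 lower), 42.4% with quantile normalization and 41.2% with length and GC correction. TPM scaling moved the median of all tested genes by 0.48 on the log2 scale, and the quantile and the length and GC settings moved it by 0.14 each. Above that median, Akap1 stood at 0.94 in the fit reported and at 0.90 with TPM scaling, and Prkar1a at 0.70 and 0.71.

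The number of members called was 0, and 0 to 2 when 1 library was left out, the 2 being Akap1 and Prkar1a without Lsm14b-KO replicate 1. All 9 detected members kept a higher level in Lsm14b-KO in every alternative run, all of which use the same libraries. The lowest log2 differences were near 0, at 0.02 for Pde3a and 0.03 for Gpr12 and Prkar2a. Of 146 values of single genes, which cover the members and Lsm14b, 144 stayed on their side of the threshold. Of 80 values of the 5 called pathway genes, 20 lost the call (Pde3b 10, Gnb5 6 and Gnas 4). Other pathway genes called numbered 5, but 3 with no minimum level, 8 with TPM scaling (6 higher and 2 lower, against 1 and 4 in the fit reported) and 2 to 8 when 1 library was left out. The log2 ratio of Prkar1a over Prkar2a differed by -0.12 to 1.35 when 1 library was left out. That of Prkaca over Prkacb differed by -0.73 to 0.85, turning to -0.73 without WT replicate 1 and to -0.50 without Lsm14b-KO replicate 2; where this leaves 1 WT value it is a value with no test. The cause of these changes was not tested, other than that fewer libraries or genes enter.

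WT and Lsm14b-KO replicates share numbers. Deviations of same-numbered libraries from their group means correlated at 0.19, -0.128 and 0.018, and not every library correlated best with its own number, so the numbers were not taken as pairs. With the replicate number as a block, 1244 genes, 0 members and 5 other pathway genes were called, Pde3b no longer and Gnb1 newly among the latter. Low fragment numbers limit what can be said of the members under 1 FPKM, which had 0 to 5 fragments per WT library where fragments could be read. On the authors' scale, the counting intervals of Gpr3, Gpr12 and Pde3a included no difference. Those of Prkar2a, Prkaca and Prkacb did not include it, but they leave out the spread between libraries. All of these intervals take the relative depth as given. Another scaling would move them, and none was run for them.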
